A study of Mus musculus with 3 samples.

Results

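The Zic genes measured here are Zic1, Zic2, Zic4 and Zic5. They encode C2H2 zinc finger transcription factors. Their probes were chosen by gene name among the spots that are no controls, which gave 8 probes of 4 genes among 39429 probes and 30175 gene names on the array. Of the 8 probes, 7 were bright enough to be tested, among 26318 tested probes that represent 20390 genes. The RNA came from mouse embryoid bodies after 10 days in suspension. These are cell clusters grown from embryonic stem cells, which turn into many cell types when the cytokine LIF is withdrawn. One condition, labelled Dido3deltaCT+HADido3CT, carries a Dido3 protein without its C-terminal region and overexpresses that missing region, which exon 16 encodes; it is called mutant+CT below. The other condition is the wild-type control, grown in parallel. Each of 3 two-colour arrays carried 1 mutant+CT RNA and 1 wild-type RNA, which gives 3 biological replicates of each condition per the labels. The mutant+CT RNA was labelled with Cy3 on replicates 1 and 3 and with Cy5 on replicate 2. No sample carried the truncation alone or the added region alone, and whether the mutant cells were 1 clone is not given in the sources used here.

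Zic proteins are relatives of the Gli and Glis zinc finger factors and of odd-paired in Drosophila. They act in gastrulation, neural plate formation, closure and dorsal patterning of the neural tube, neural crest formation and growth of the cerebellum. Zic1 and Zic4 lie head to head on mouse chromosome 9, and Zic2 and Zic5 lie head to head on chromosome 14. Loss of ZIC2 in humans is a cause of holoprosencephaly, a failure to divide the forebrain, and loss of ZIC1 together with ZIC4 has been linked to a malformation of the cerebellum. Zic2 is also active in stem cells and in the epiblast.

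One probe of Zic1 is shown because it lies in the stretch that codes for the zinc fingers, which is conserved in the family. Probe A_55_P2009774, at chr9:91257301-91257360 of mm9 on the minus strand, has in capitals its match to TGC, any 6 bases and TGC again, the letters of a pair of cysteine codons spaced as in some C2H2 fingers. The pattern, searched on the probe strand, occurs in 505 of 39429 probes (1.28%) and in 1 of the 8 Zic probes. Binding of other family members to this probe was not tested.
A_55_P2009774: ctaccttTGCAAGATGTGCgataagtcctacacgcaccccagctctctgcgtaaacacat

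The 250 bases before the annotated starts of Zic1 and Zic4 are shown because both genes of this pair had low ratios. The sequences are from RefSeq on GRCm38.p6, where the starts lie 3204 bases apart. The Zic1 stretch is chr9:91365769-91366018 on the minus strand and the Zic4 stretch is chr9:91368722-91368971 on the plus strand. Capitals mark CCAAT on either strand, found at 2 places before Zic1 and at 0 before Zic4, and in 33.8% of 32817 promoter stretches of this length. The motif GGGTGGTC, to which Gli and Zic fingers bind in vitro, and TATAAA were found at 0 places in both on either strand, against 0.704% and 12.4% of all stretches. G and C make up 66.0% of the Zic1 stretch and 44.4% of the Zic4 stretch. These are matches of letters and say nothing of binding.
Zic1: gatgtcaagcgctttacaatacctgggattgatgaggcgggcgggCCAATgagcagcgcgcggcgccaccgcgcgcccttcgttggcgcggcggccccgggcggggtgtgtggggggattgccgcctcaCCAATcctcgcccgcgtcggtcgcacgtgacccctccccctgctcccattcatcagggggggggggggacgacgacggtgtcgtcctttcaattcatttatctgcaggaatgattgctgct
Zic4: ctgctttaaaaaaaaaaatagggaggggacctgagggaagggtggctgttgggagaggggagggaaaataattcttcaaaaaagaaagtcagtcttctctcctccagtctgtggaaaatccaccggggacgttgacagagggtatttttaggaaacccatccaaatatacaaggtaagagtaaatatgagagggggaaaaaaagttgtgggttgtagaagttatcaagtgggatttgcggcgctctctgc

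The share of spots well above background was 69.0% to 78.5% in mutant+CT channels and 68.2% to 76.4% in wild-type channels, and 0 spots were saturated. Of 12 markers of the lineages and states found in embryoid bodies, 12 were well above background on every array in mutant+CT and 12 in wild type. Across all tested probes the ratios of replicates 1 and 3 correlated at 0.56 (Pearson), those of 2 and 3 at 0.37 and those of 1 and 2 at 0.21, and probes are not independent replicates. Replicate 2 is alone in its dye orientation, so the dyes and that replicate cannot be told apart. The number of arrays limits the precision. A ratio below is the log2 ratio of mutant+CT over wild type on 1 array, and a mean ratio is given ± SD over the 3 arrays.

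By its brightest tested probe, each of the 4 Zic genes had a ratio below 0 on each of the 3 arrays, as did 17.4% of all genes, while 20.3% were above 0 on every array. Zic1 had the lowest mean ratio, followed by Zic4, Zic2 and Zic5. With the mean of a gene's tested probes Zic4, at -3.56, came before Zic1, at -3.15. That mean covers 2 probes for Zic1 and 1 for Zic4. The other Zic4 probe, with a mean ratio of -2.07, was too dim to be tested and is left out. Neighbours in the order by brightest probe had overlapping 95% intervals, which limma put at -6.88 to -2.61 for Zic1, -5.71 to -1.42 for Zic4, -2.40 to -1.15 for Zic2 and -1.39 to -0.19 for Zic5. Levels of different genes were read by different probes and have no order here. In limma over 26318 probes with Benjamini-Hochberg adjustment, 0 of 4 Zic genes had an adjusted p under 0.05, and their adjusted p ran from 0.0674 for Zic2 to 0.204 for Zic5. The same fit called 0.437% of all probes (0.106% lower and 0.331% higher in mutant+CT) and, by their brightest probe, 0.343% of all genes (0.0981% lower and 0.245% higher). At an unadjusted p under 0.05 it held 4 of 4 Zic genes by their brightest probe and 16.1% of all genes, and 16.5% of all probes. The other 2 tested Zic5 probes went the other way, with mean ratios of 0.64 and 0.72 and unadjusted limma p of 0.0415 and 0.0301. The values given for Zic5 here are thus those of its brightest probe only. At an adjusted p under 0.1 the fit held Zic1 and Zic2, and 2.56% of all probes. Zic1 and Zic2 were at least 2-fold lower on every array, as were 0.991% of all genes, while the median ratio was -2.67 over the 4 Zic genes and -0.0026 over all genes. In bulk samples, fewer cells of a type and less RNA per cell cannot be told apart.

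**Figure D1:**
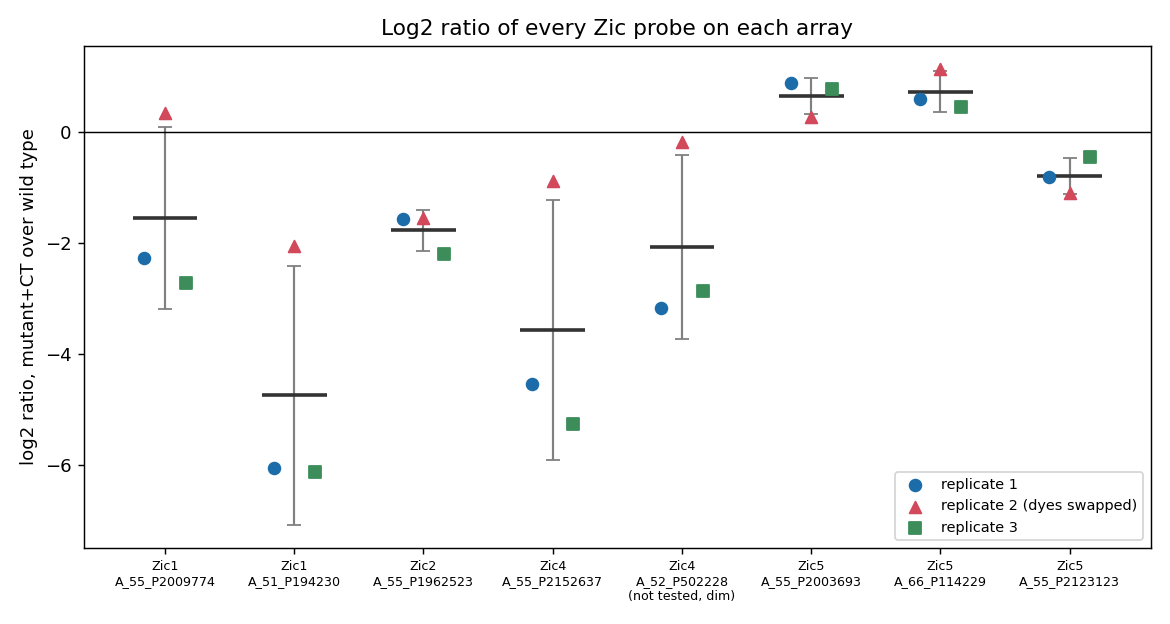
Log2 ratio of mutant+CT over wild type for the 8 Zic probes, with those of a gene ordered along its transcript, with points for the arrays, a bar for the mean and whiskers for the SD (n = 3). The Zic1 and Zic4 probes lie higher on replicate 2 than on replicates 1 and 3, the Zic2 probe lies between -2.20 and -1.55, and the 3 Zic5 probes lie on both sides of 0.

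Zic1, a factor of the dorsal neural tube and the cerebellum, gave the lowest ratios of the family at probe A_51_P194230 (chr9:91255425-91255484, mm9, minus strand, transcript NM_009573). As deposited, the brightness of this spot in mutant+CT was 152, 118 and 205 on replicates 1, 2 and 3, against 6590, 541 and 14715 in wild type, over local backgrounds of 34 to 49.5. On the normalized log2 scale these were 6.98, 7.06 and 7.52 in mutant+CT and 13.03, 9.11 and 13.64 in wild type. All mutant+CT values lay below all wild-type values, as they did for 6.88% of tested probes. The mutant+CT values lay close together, and within wild type the value of replicate 2 was far below those of replicates 1 and 3.

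The ratios of this Zic1 probe were -6.05, -2.05 and -6.12, or 66.4-fold, 4.15-fold and 69.6-fold lower in mutant+CT. Counted from the lowest, they stood at place 2, 252 and 3 of 26318 probes on replicates 1, 2 and 3, and their mean stood at place 2. The mean ratio was -4.74 ± 2.33 (SD, n = 3), with a 95% interval from limma of -6.88 to -2.61 and an adjusted p of 0.0922. Without replicate 2 the mean ratio was -6.09 and without replicate 3 it was -4.05. Agilent's processed signals gave -5.59 and an adjusted p of 0.0359 in limma, which is a call. Over 16 alternatives, among them the mean of both Zic1 probes, the adjusted p ran from 0.0359 to 0.230.

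The zinc finger probe of Zic1, whose sequence is shown above, was dimmer and did not follow on replicate 2. Its ratios were -2.27, 0.33 and -2.72, with a mean of -1.55 ± 1.64 (SD, n = 3) and an adjusted p of 0.303 in limma. Without replicate 2 the mean was -2.49 (limma adjusted p = 0.125) and without replicate 3 it was -0.97 (adjusted p = 0.843), and over 14 alternatives the adjusted p ran from 0.125 to 0.843. Its spot had 183, 155 and 297 in mutant+CT and 587, 143 and 2002 in wild type. The ratio of the other Zic1 probe, which lies 1876 bases further 3', differed from this one by -3.79, -2.38 and -3.40 on the 3 arrays. Both probes had their lower ratios on replicates 1 and 3.

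Zic4, the neighbour of Zic1, was measured by probe A_55_P2152637 (chr9:91282924-91282983, mm9, plus strand, NM_009576). The spot had 121, 88.8 and 131 in mutant+CT, against 1859, 186 and 4481 in wild type, over backgrounds of 37 to 51. The normalized log2 values were 6.65, 6.62 and 6.65 in mutant+CT and 11.18, 7.51 and 11.91 in wild type, again with no overlap. As for Zic1, the mutant+CT values were low and alike and the wild-type value of replicate 2 was the lowest of the 3. The lowest mutant+CT values over all tested genes were 5.87, 5.82 and 5.85. This floor depends on the processing, which adds an offset of 50 to every signal before the logarithm is taken. Values near that floor limit how low a ratio can be read and how far arrays can differ. The ratios were -4.53, -0.89 and -5.26, at places 11, 2645 and 14 from the lowest. The mean ratio was -3.56 ± 2.34 (SD, n = 3), or 11.8-fold lower, with an adjusted p of 0.142 in limma. Agilent's processed signals gave -4.94 and an adjusted p of 0.0558 in limma. Without replicate 2 the mean was -4.90, without replicate 3 it was -2.71 and without replicate 1 it was -3.08. At least 2-fold lower on both remaining arrays were 3 of 4 Zic genes without replicate 2 (2.81% of all genes), and 2 of 4 without replicate 1 (2.55%) or without replicate 3 (1.33%).

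The other Zic4 probe, A_52_P502228, lies 1067 bases further 3' at chr9:91283991-91284050. It holds AATAAA, the letters of a common polyadenylation signal, as do 12.6% of all probes on the probe strand. In mutant+CT it was not well above background on any array (93.9, 56.2 and 85.1), and in wild type it was so on 2 of 3 arrays (512, 94.6 and 552). It was therefore not tested. As a mean of log2 levels over the 3 arrays, wild type was 3.90-fold above a limit for mutant+CT. On each array the limit was the lowest signal among all probes well above background or the dim probe's own value, whichever was higher. That lowest signal came from other probes and is no detection limit of this one. Without a limit the measured values gave 4.21-fold. The 3.90-fold mean includes the dim wild-type value of replicate 2, so it is no bound for each array. On replicate 2 the measured wild-type level was 1.13-fold higher. The 3.90-fold value was computed per channel after loess and Aquantile and is open to dye bias, since the dye orientations are not balanced. Its measured ratios were -3.18, -0.18 and -2.87, so replicate 2 was nearest to 0 here too.

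**Figure D2:**
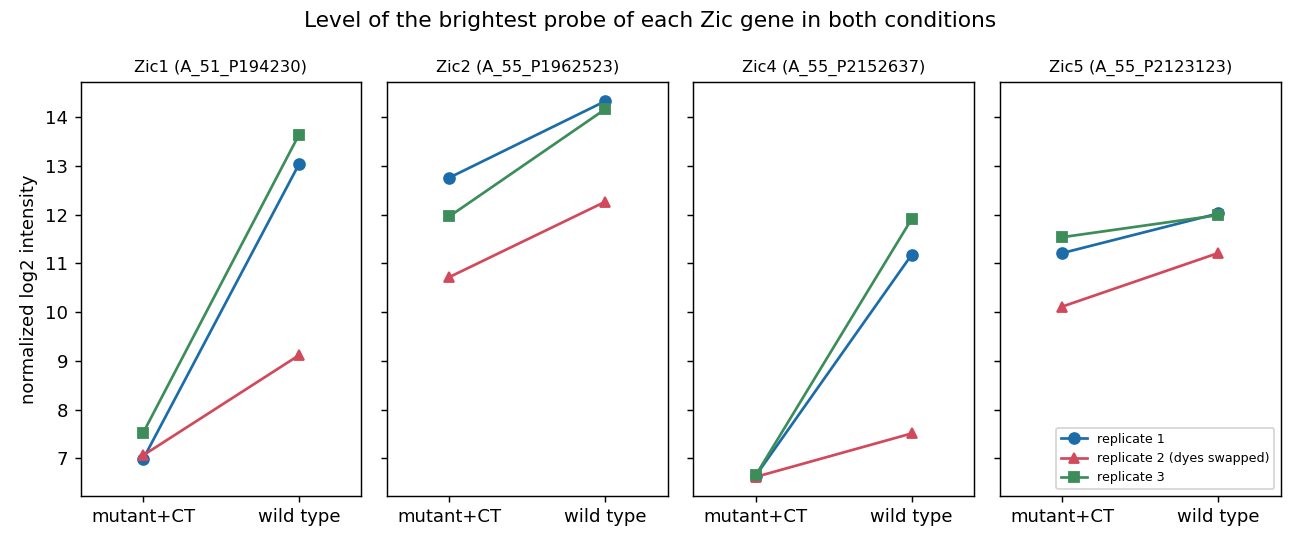
Normalized log2 intensity of the brightest tested probe of each Zic gene in mutant+CT (left) and wild type (right), with 1 line for each array. For Zic1 and Zic4 the lines start together in mutant+CT, between 6.98 and 7.52 and between 6.62 and 6.65, and spread in wild type, where replicate 2 is lowest. For Zic2 and Zic5 all 3 lines end higher in wild type than in mutant+CT. Heights are comparable within a panel only.

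Zic2, a factor of forebrain division and neural tube closure, had ratios below -1.5 on every array with a smaller spread than those of Zic1 and Zic4. At its 1 probe, A_55_P1962523 (chr14:122879296-122879355, mm9, plus strand, NM_009574), the spot had 6142, 1805 and 4234 in mutant+CT, against 16486, 5525 and 20323 in wild type. The normalized log2 values were 12.76, 10.72 and 11.97 in mutant+CT and 14.33, 12.27 and 14.17 in wild type. The groups overlapped, since replicate 1 of mutant+CT lay above replicate 2 of wild type, yet mutant+CT was the lower channel on all 3 arrays. Both channels were lowest on replicate 2.

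The Zic2 ratios were -1.57, -1.55 and -2.20. Their mean was -1.77 ± 0.37 (SD, n = 3), or 3.42-fold lower, with a 95% interval of -2.40 to -1.15. The adjusted p of 0.0674 in limma was the smallest among the tested Zic probes. Agilent's processed signals gave a mean of -1.86 and a limma adjusted p of 0.0493, which is a call. Over 16 alternatives its adjusted p ran from 0.0356 to 0.215.

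Zic5, which lies beside Zic2 and acts in neural crest and neural tube formation, gave opposite signs at different probes. From the 5' end on the minus strand of chromosome 14 (mm9), A_55_P2003693 at 122858394 to 122858453 had ratios of 0.88, 0.26 and 0.78. A_66_P114229, which lies 608 bases further at 122857786 to 122857845, had 0.58, 1.13 and 0.45. A_55_P2123123, which lies 2375 bases from the first at 122856019 to 122856078 and holds AATAAA, had -0.81, -1.10 and -0.45. So both probes nearer the 5' end were above 0 on every array and the most 3' one, which was the brightest, was below 0 on every array. Of all tested probes 18.1% were below 0 and 20.4% above 0 on every array.

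The mean ratios of these Zic5 probes were 0.64 ± 0.33, 0.72 ± 0.36 and -0.79 ± 0.32 in the same order (SD, n = 3), and limma gave adjusted p of 0.278, 0.244 and 0.204. None was a call. The most 3' probe differed from the first by -1.69, -1.36 and -1.23 on the 3 arrays and from the second by -1.40, -2.23 and -0.90. Of 4815 genes with several tested probes, 5.03% had a probe below 0 on every array and another above 0 on every array. Averaged over its 3 probes, the gene had a mean ratio of 0.19, so the sign given for Zic5 depends on the probe.

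The Zic5 spot levels show the same split. The brightest probe had 2206, 1150 and 3112 in mutant+CT and 3155, 2619 and 4578 in wild type. A_66_P114229 had 927, 739 and 759 in mutant+CT and 463, 354 and 594 in wild type, and its normalized mutant+CT values, 9.82, 9.54 and 9.47, all lay above those of wild type, 9.24, 8.40 and 9.02. That pattern held for 9.66% of tested probes. A_55_P2003693 had 589, 170 and 607 in mutant+CT and 228, 153 and 363 in wild type. The files annotate the first of these probes along the gene to NM_022987 and the others to ENSMUST00000039118. The place of each probe relative to exons was not determined here.

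**Figure D3:**
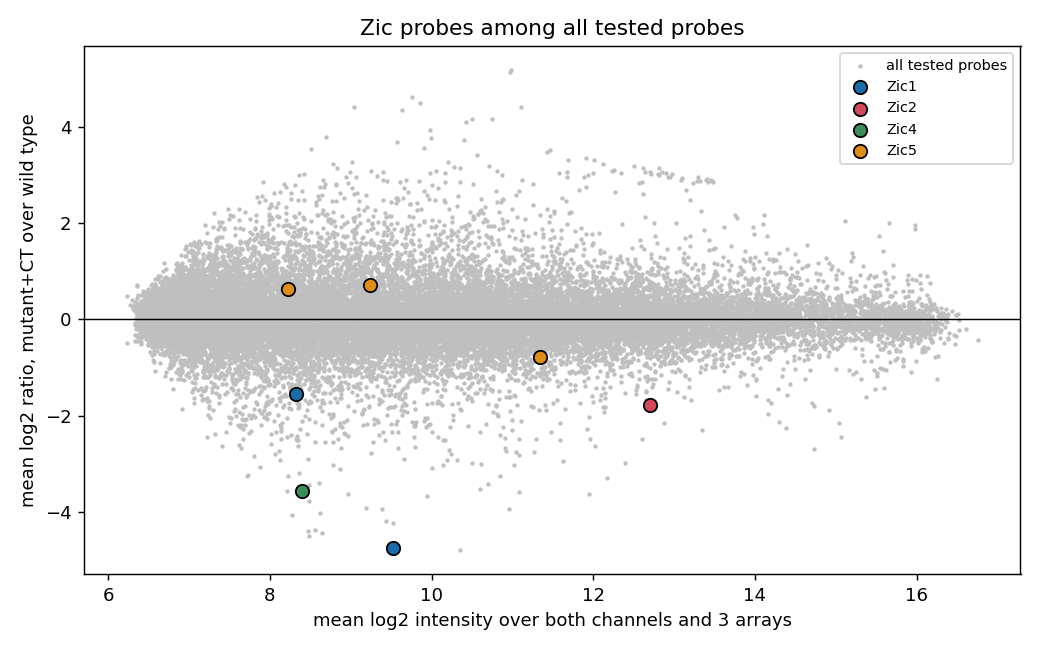
Mean log2 ratio of mutant+CT over wild type against mean log2 intensity for the 26318 tested probes (grey) and the 7 tested Zic probes (coloured by gene). The brighter Zic1 probe, at -4.74, has the second lowest mean ratio of all tested probes. The Zic5 probe below 0 is the brightest of its gene, at a mean log2 intensity of 11.34.

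Among the Zic genes the arrays differed most for Zic1 and Zic4. When a dye effect was added to the limma model, its coefficient was 2.02 for the brighter Zic1 probe (adjusted p = 0.387), 1.41 for the zinc finger probe (adjusted p = 0.387) and 2.00 for Zic4 (adjusted p = 0.387). It was 0.17 for Zic2 and between -0.28 and 0.31 for the Zic5 probes. Of 26318 tested probes, 3003 had an unadjusted p under 0.05 for this coefficient and 0 an adjusted p under 0.05. The brighter Zic1 probe, the zinc finger probe and the Zic4 probe were among the 3003. Their unadjusted limma p were 0.000732, 0.00393 and 0.00218. Early neural genes had a like pattern over the channels. Over the 16 tested ones, the median normalized log2 level was 7.50, 7.16 and 8.25 in mutant+CT and 11.25, 8.90 and 11.05 in wild type, so wild type was lowest on replicate 2. Over all genes the medians were 9.72, 9.65 and 9.70 in mutant+CT and 9.60, 9.68 and 9.67 in wild type. The part of these genes in the Zic1 and Zic4 values was not tested.

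Markers of other cell types are set beside the Zic values. Of the 12 embryoid body markers, 0 passed in limma, where the smallest adjusted p was 0.0668, and 9 had an unadjusted p under 0.05, against 16.1% of all genes. On every array 5 were below 0 and 4 above 0, against 17.4% and 20.3% of all genes. Apoa1, Trf and Afp, which visceral endoderm and liver cells make, had mean ratios of 2.12 ± 0.58, 2.24 ± 1.09 and 1.55 ± 1.02, and Pou5f1, a pluripotency factor, had 1.26 ± 0.61. Gata4, another of the 12 markers, went the other way and was below 0 on every array, at -0.67 ± 0.29. The embryonic globin gene Hbb-bh1 had -3.30 ± 1.97, and the neural genes Sox1 and Tubb3 had -3.11 ± 1.37 and -1.16 ± 1.01. The cardiac genes Actc1 and Myl7 and the endothelial gene Kdr were above 0 on replicate 1, at 3.79, 4.05 and 3.24, and below 0 on replicates 2 and 3. The part of these markers in the Zic values was not tested.

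Among genes of the early neural plate, where Zic factors act, the median ratio was -2.21 over 16 tested of 18 listed genes, and 7 were at least 2-fold lower on every array, against 0.991% of all genes. Rax, an eye field and hypothalamus homeobox gene, fell by 2.50 ± 0.35 (limma adjusted p = 0.0493), and it was the 1 member that passed, while 9 had an unadjusted p under 0.05, against 0.343% and 16.1% of all genes. With 1 row per gene in place of 1 per probe, 0 genes of the array passed in limma, with 3211 at an unadjusted p under 0.05, and limma called 0 probes of the array without replicate 2 or without replicate 3. The Notch target Hes5 had a mean ratio of -3.92 ± 1.49, the neural factors Sox3 and Six3 had -2.19 ± 0.71 and -2.24 ± 0.75, and the eye and forebrain factor Pax6 had -3.19 ± 1.35, with adjusted p of 0.0690 to 0.0803. Of the 16 genes 11 were below 0 and 0 above 0 on every array, against 17.4% and 20.3% of all genes. Sox2, which neural and stem cells share, had 0.16 ± 0.62, and Otx2 had -0.49 ± 0.38.

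Genes of the neural plate border and the dorsal neural tube, where Zic1, Zic2 and Zic5 are active in the embryo, had a median ratio of -0.74 over 15 tested of 18. In limma 0 passed and 7 had an unadjusted p under 0.05, against 16.1% of all genes. On every array 8 were below 0 and 2 above 0, against 17.4% and 20.3% of all genes. The 2 above 0 were Foxd3, at 0.89 ± 0.16, and Bmp7, at 0.29 ± 0.11. Tfap2a, a border and neural crest factor, had -1.74 ± 0.81, Pax3, a dorsal neural tube factor, had -1.16 ± 0.31, and Lmx1a, a roof plate factor, had -2.48 ± 1.31, with adjusted p of 0.111 to 0.112. Lmx1a was nearest to 0 on replicate 2, at -1.25, against -3.86 and -2.32 on replicates 1 and 3. The cerebellar gene Atoh1 did not meet the filter for testing and was not tested, nor were Pax7 and Wnt3a.

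The primed epiblast list, in which Zic2 is also active, had a median of 0.52 over 9 genes. On every array 5 were above 0 and 2 below 0, against 20.3% and 17.4% of all genes, so the share below 0 is near that of the array. In limma 0 passed and 5 had an unadjusted p under 0.05, against 16.1% of all genes. Apart from Sox3, the members with the smallest p were above 0: the growth factor Nodal had 1.30 ± 0.35, Foxd3 had 0.89 ± 0.16, the DNA methyltransferase Dnmt3b 0.99 ± 0.35 and Sox4 1.61 ± 1.23. The brightest Zic2 and Zic5 probes lay below 0 on every array, unlike 7 of these 9 genes. The other 2 Zic5 probes lay above 0 on every array, as did 5 of these genes, so for Zic5 this contrast depends on the probe.

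Over 5 tested of 6 Gli and Glis genes, the zinc finger relatives of the Zic genes, the median was 0.01. In limma 0 passed and 1 had an unadjusted p under 0.05, against 0.343% and 16.1% of all genes. On every array 1 was below 0 and 2 above 0, against 17.4% and 20.3% of all genes. The share at that p and the share below 0 are thus near those of the array. Gli3, a mostly repressive Gli factor of the Hedgehog pathway, had -0.68, -1.55 and -3.43, with a mean of -1.89 ± 1.41 (limma adjusted p = 0.187), which is close to the mean of Zic2. Gli1, a Hedgehog target and activator, had a mean of 0.55 ± 0.40 and Glis1 0.41 ± 0.17. Genes whose proteins are reported to bind Zic proteins or to act in complexes with them had a median of -0.05 over 11 genes. Of these, 0 passed in limma and 0 had an unadjusted p under 0.05, against 0.343% and 16.1% of all genes. The DNA repair subunits Xrcc6 and Xrcc5 had 0.46 ± 0.21 and 0.48 ± 0.39 and Parp1 had 0.46 ± 0.25. Mdfi, an inhibitor of myogenic factors, had 0.73, -1.53 and -1.36.

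Zic genes are also active outside the nervous system, in somites and in the coverings of the brain. Somite and dermomyotome genes had a median of 0.43 over 6 tested of 8. Of these, 0 passed in limma and 2 had an unadjusted p under 0.05, against 0.343% and 16.1% of all genes. Tcf15, a somite factor, had 0.96 ± 0.78, Mesp2, a segmentation factor, had 0.48 ± 0.17, and Pax3 is given above. Genes of meninges and mesenchyme had medians of 2.59, -1.78 and -0.82 on the 3 arrays. Of these, 6 of 6 tested genes changed sign between arrays, as did 12695 of all 20390 genes. In limma 0 passed and 0 had an unadjusted p under 0.05, against 0.343% and 16.1% of all genes. Foxc1, a factor of meninges and other mesenchyme, had 0.61, -2.14 and -1.64, Foxc2 had 2.58, -0.85 and -0.49, and Twist1 had 2.61, -1.42 and 0.09. These mesenchymal genes had their highest ratios on replicate 1, where the Zic1 and Zic4 ratios were -6.05 and -4.53, and on replicate 3 they were -6.12 and -5.26. Their part in the Zic values was not tested. Pax3, Foxd3, Sox3 and Otx2 each stand in 2 of the lists.

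**Figure D4:**
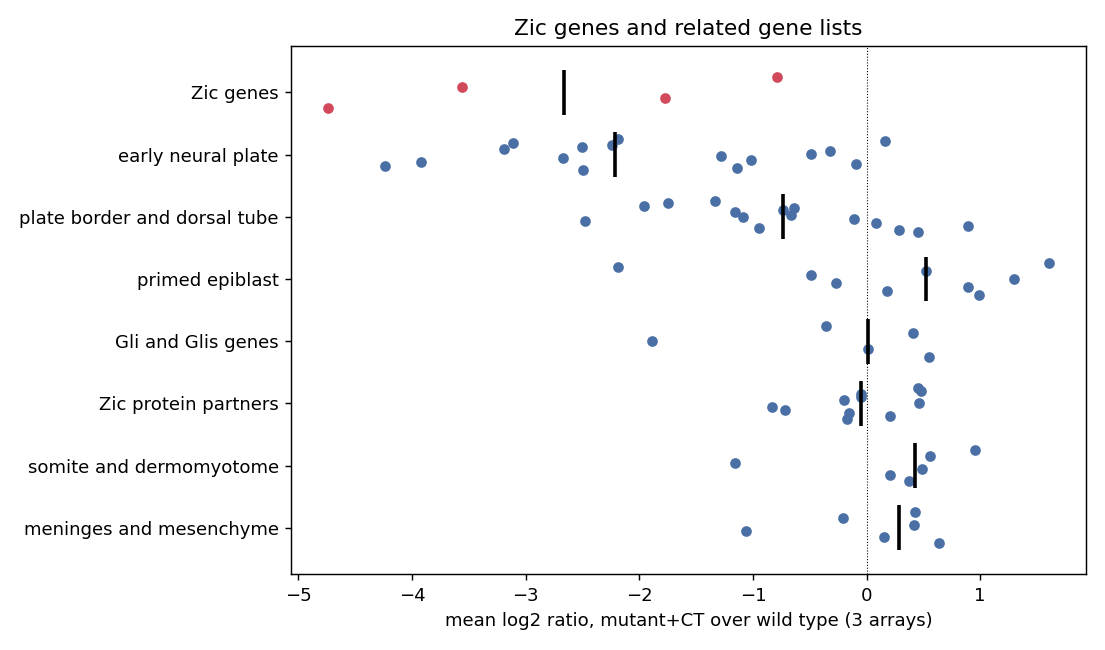
Mean log2 ratio of mutant+CT over wild type for the 4 Zic genes (red, top row) and the tested genes of 7 related lists (blue), each gene by its brightest tested probe, with a black bar at the median of each list. The Zic median of -2.67 and the early neural plate median of -2.21 are the lowest of the rows shown, and the other medians lie between -0.74 and 0.52.

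The genes with the most similar ratios were found by Euclidean distance over the 3 arrays among 20390 genes. For Zic1 they included Gm3515, C130071C03Rik, Fezf1 and Fabp7, at distances of 0.71 to 1.74 log2 units. Fezf1 had -5.21, -2.52 and -5.42. For Zic4 they were Lhx5, Fezf2, Pantr1, C130071C03Rik and Pax6, at 1.37 to 1.54, and Lhx5 had -4.36, -0.81 and -3.90. Zic2 was nearest to H1f10, Gatc, Igf1r, Prom1 and Ptrh2, at 0.23 to 0.34. Zic5, by its brightest probe, was nearest to Tmed3, Sox17, Zfp566, Thap7 and Nme4, at 0.06 to 0.17. The lists of Zic1 and Zic4 share C130071C03Rik, and neither shares a gene with that of Zic2 or Zic5. Distances over 3 arrays are a description, and more genes lie close to a small ratio than to a large one.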

How the data were processed

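The deposited scanner files hold intensity values, the mean brightness of each spot and the median of its local background in Cy3 and Cy5, extracted with Agilent's Feature Extraction software, version 10.7.3.1, per the file headers. Agilent's processed intensity and its log10 ratio of Cy5 over Cy3 are deposited beside them, and the log10 ratio was not used. The deposited table of log2 ratios was normalized by the authors, with limma per the submitters' processing notes. Its exact steps are not given in the sources used here. The column medians were -0.02, 0.01 and -0.02. Each column correlated positively with the mutant+CT over wild-type ratios computed here, at 0.994, 0.996 and 0.998.

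Per the labels, 1 µg of total RNA was amplified and 300 ng of cRNA per dye were hybridised. In R 4.3.3 with limma 3.58.1, background was corrected by normexp (offset 50), dyes were normalized by loess within arrays with control spots at weight 0, spots with an outlier flag (454, 234 and 507) were dropped, and ratios were turned to mutant+CT over wild type. A probe was tested when it was well above background on all 3 arrays in either condition and measured on all 3. The mean ratio was set against 0 in limma's empirical Bayes test, with Benjamini-Hochberg adjustment over 26318 probes, at adjusted p under 0.05; an exact sign-flip test over 3 arrays cannot go below p = 0.25. Genes in lists are represented by their brightest tested probe. Channel levels were computed after loess and Aquantile. Gene names follow RefSeq by accession (27234 of 39429 probes) and otherwise the files. Probe coordinates are those of the files (mm9).

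Named by rule are all Zic probes, the 3 members with the smallest p of each list (5 for the early neural and epiblast lists) and the 5 nearest genes, of which some are not reported here. Others were chosen after their values were seen. The members and lists were chosen with earlier results of these data known. The 2-fold counts without a replicate were added after seeing the data.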

Additional observations from a re-analysis of the deposited data

How the results depend on the processing

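Under 16 alternatives, Zic1, Zic2 and Zic4 kept a ratio below 0, with ranges of -6.09 to -3.15, -1.89 to -1.56 and -4.94 to -2.71. The -3.15 of Zic1 came from the alternative that takes the mean of a gene's tested probes. By its brightest probe Zic1 ran from -6.09 to -4.05. Zic5 was below 0 in the other 15, which use its brightest probe. With the mean of all its probes Zic5 had 0.19 (limma adjusted p = 0.720), since 2 of its 3 probes lie above 0. Of the 4 Zic genes, limma called 2, Zic1 (-5.59) and Zic2 (-1.86), on Agilent's processed signals, 2, Zic1 (-4.74) and Zic2 (-1.77), with a trended and robust variance prior (adjusted p = 0.0453 and 0.0356), 2, the same genes, at an adjusted p under 0.1, and 1, Zic1 (-4.74, adjusted p = 0.0396), in a separate-channel fit with the array as replicate block. The array pairs the samples in every other fit. The other alternatives called 0 of the 4. Leaving out replicates in turn, the mean ratio ran from -6.09 to -4.05 for Zic1, from -1.89 to -1.56 for Zic2, from -4.90 to -2.71 for Zic4 and from -0.96 to -0.63 for Zic5, with 0 Zic genes called.

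The number of probes called over the whole array depended on the setting: 115 as reported, 16 without background subtraction, 739 on Agilent's processed signals, 40 with median centring, 469 with the trended and robust prior, 747 in the separate-channel fit and 673 at an adjusted p under 0.1. Limma called 0 with no filter on dim probes, with 1 row per gene (brightest probe or mean), with a dye term, and without replicate 2 or 3, where 5294, 3211, 3283, 4313, 5704 and 2418 had an unadjusted p under 0.05 in that order. Without a replicate the count ran from 0 to 125. The cause was not tested. Dim mutant+CT signals, as at both probes of Zic1 and both probes of Zic4, limit how low a ratio can be read.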
